A study of Arabidopsis thaliana with 4 samples.

Results

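The genes described here encode histones and proteins of DNA replication in Arabidopsis thaliana, together with the mitotic kinase AUR1. They were taken by locus from a list of 55 genes, and a gene was measured where the platform annotation paired a probe set with that gene alone. This gave 15 of the 55 genes, each with 1 probe set, among 13286 genes paired in this way and 22746 probe sets on the array. Of those 15 genes, 11 were bright enough to be tested. They were 6 histone H2B genes, 3 linker histone genes, the replication helicase gene PRL and AUR1. The other 4 (HTB7, HTB10, HTR6 and HTR14) lay in the dimmest 40% of probe sets. The remaining 40 genes had no probe set of their own in the annotation used. They comprise all 12 histone H2A genes, 2 H2B genes, the 5 H3.1, 3 H3.3 and 8 H4 genes, 5 of the 6 MCM genes, both PCNA genes and the 3 ribonucleotide reductase genes. The values below are therefore a view of H2B, linker histones, PRL and AUR1 rather than of the whole replication machinery. A further 13 bright probe sets are paired jointly with the H3.1, H3.3 or H4 genes and are described after the members.

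A eukaryotic cell that copies its DNA must also make the proteins to package the copy. Core histones H2A, H2B, H3 and H4 form the nucleosome, the linker histone H1 binds the DNA between nucleosomes, and in plants transcripts of the replication-dependent histones accumulate in S phase. The MCM proteins form the helicase that opens DNA at replication origins, and their plant genes carry binding sites of E2F transcription factors. In a seedling these transcripts come mostly from dividing cells of the shoot and root meristems and of young leaves, and from cells that copy their DNA without dividing.

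Transcripts were measured in whole seedlings 2 weeks old, on 2 arrays of T3 transgenic plants overexpressing RECA1 (AT1G79050) and 2 arrays of wild-type Col-0, the ecotype that both groups share. RECA1 is the chloroplast homologue of the bacterial recombinase RecA. All plants grew untreated at 23 °C under 16 h of light. The labels give neither the promoter of the transgene nor the number of independent lines. Samples are named as biological replicates there, but whether each came from a separate culture is not given, so the p-values measure only the spread between these samples. The transgenic group is called RECA1-OE below.

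Values are log2 signals, 1 per probe set and array, and a difference of 1 on this scale is a doubling of the signal. The 4 arrays had median log2 signals between 7.58 and 7.63. Pearson's r across the tested probe sets, which are not independent, was 0.980 between the RECA1-OE arrays and 0.966 between the Col-0 arrays, and between 0.882 and 0.924 across groups. RECA1 has no probe set of its own in the annotation used, so the group labels were not checked against its own level. Of 35 listed marker genes, flower and senescence genes among them, 8 had a paired probe set and 6 were tested. Limma called 0 of these 6, with 1 at an unadjusted p under 0.05. All 6 had a lower mean in RECA1-OE. In LHCB4.1, PSAN and the root hair gene EXPA18 the groups did not overlap, as in 35.1% of all tested probe sets in this direction. The green leaf markers RCA, LHCB4.1 and PSAN had log2 signals between 13.79 and 14.56 in RECA1-OE, against 14.07 to 14.62 in Col-0. The root marker PYK10 had 13.15 and 13.65 in RECA1-OE, against 14.13 and 13.53 in Col-0. Leaf and root transcripts were thus both present in the samples labelled as seedlings.

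RECA1-OE was compared with Col-0 to ask which of these transcripts differ when RECA1 is overexpressed in unstressed seedlings. PRL, of the replicative helicase, and AUR1, a mitotic kinase, had signals 2.23-fold and 1.99-fold lower in RECA1-OE, and no member was called higher. None of the 6 tested H2B genes and none of the 3 linker histone genes passed the test. All 6 tested H2B means were lower in RECA1-OE, as were the means of all 6 tested markers. Of all 13647 tested probe sets, 7202 had a log2 change of -0.0035 or lower. Whether the H2B probe sets detect each other's transcripts was not tested, so they may not be separate observations. By limma at an adjusted p under 0.05, 2 of 11 tested members were called lower, 0 were called higher and 9 were not called. At an unadjusted p under 0.05 limma had 4 lower and 1 higher, of which 2 lower ones were H2B genes and the higher one was a linker histone. Such an unadjusted p was common, with 4824 of all 13647 tested probe sets under 0.05 in either direction. The called members are 18.2% of those tested. Of all 13647 tested probe sets 19.9% were called in either direction, 9.97% lower and 9.94% higher. The share of members called is thus near the background, and the count by itself is not a result about these genes. Their median log2 change was -0.31, against -0.04 over all tested probe sets. In a whole seedling, fewer cells that express a gene and less RNA per cell cannot be told apart.

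**Figure D1:**
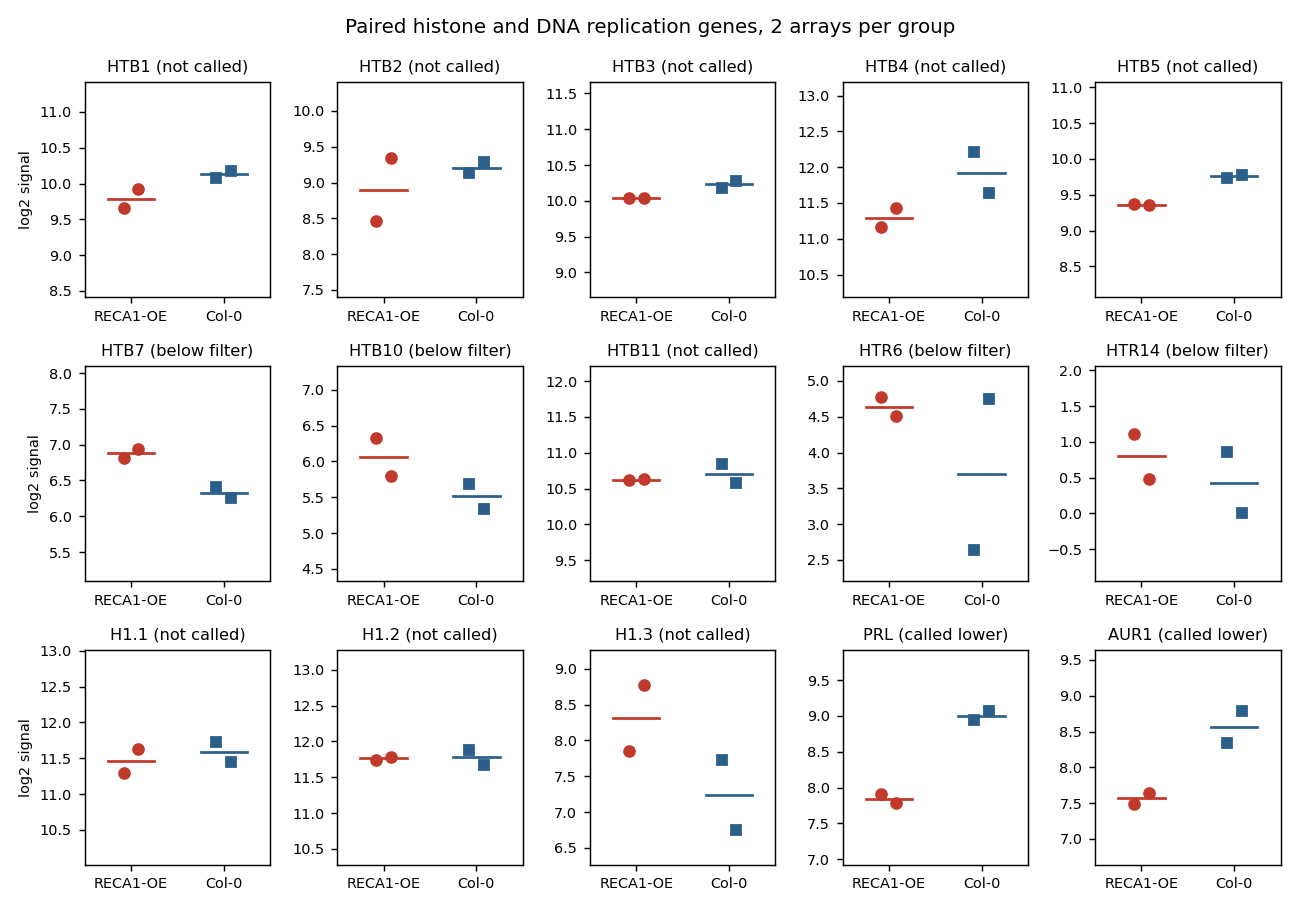
Log2 signal of the 15 paired members, with 2 RECA1-OE arrays (circles) left of 2 Col-0 arrays (squares) and the group mean as a line. Every panel spans 3 log2 units. PRL and AUR1 have both RECA1-OE arrays well below both Col-0 arrays, while the H2B genes lie closer together.

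PRL (AT4G02060), which encodes the MCM7 subunit of the replicative helicase, had the largest fall among the tested members. Its log2 signal was 7.91 and 7.78 in RECA1-OE, against 8.94 and 9.06 in Col-0. Both RECA1-OE arrays lay more than 1 log2 unit below both Col-0 arrays, and the arrays of a group differed little. The group means were 7.85 ± 0.10 in RECA1-OE and 9.001 ± 0.089 in Col-0 (SD, n = 2 each). The log2 change was -1.15 ± 0.17 (SE), a signal 2.23-fold lower, with a 95% interval from -1.54 to -0.77 and a limma adjusted p of 0.0050. Of all tested probe sets, 1.68% had a change as negative or more so. PRL was called lower under all 12 alternative settings in which it was tested, with log2 changes between -1.22 and -1.09 and adjusted p values up to 0.036.

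AUR1 (AT4G32830) encodes an Aurora kinase, which in plants acts at the mitotic spindle and in the orientation of cell division. It is the only listed gene of mitosis rather than of DNA replication or packaging. Its log2 signal was 7.49 and 7.65 in RECA1-OE, against 8.34 and 8.78 in Col-0. The groups did not overlap, and the Col-0 arrays differed more from each other than the RECA1-OE arrays did. The means were 7.57 ± 0.11 in RECA1-OE and 8.56 ± 0.32 in Col-0 (SD, n = 2 each). The log2 change was -0.99 ± 0.21 (SE), or 1.99-fold lower, with a 95% interval from -1.48 to -0.51 and a limma adjusted p of 0.018. The call was lost without RECA1-OE replicate 1 (limma adjusted p 0.096) and without RECA1-OE replicate 2 (0.061), where the log2 changes were -0.91 and -1.07. AUR1 lay below a stricter filter on the dimmest 60%.

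Histone H2B pairs with H2A in the nucleosome core, and Arabidopsis carries a family of H2B genes with closely similar products. Whether a probe set also detects transcripts of other H2B genes was not tested, so the values of single genes in this family are uncertain in their assignment. HTB4 (AT5G59910) differed most. It had 11.16 and 11.43 in RECA1-OE, against 12.21 and 11.64 in Col-0. The groups did not overlap, but Col-0 replicate 2 lay closer to RECA1-OE replicate 2 than to the other Col-0 array. The log2 change was -0.63 ± 0.21 (SE), with a 95% interval from -1.12 to -0.14 and a limma adjusted p of 0.074. It was -0.35 when Col-0 replicate 1 was left out. Leaving out Col-0 replicate 2 gave -0.91, which was called.

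HTB5 (AT2G37470) was the H2B gene with the tightest arrays. It had 9.36 in both RECA1-OE arrays, against 9.74 and 9.78 in Col-0. Its log2 change was -0.40 ± 0.15 (SE), with a 95% interval from -0.74 to -0.06 and a limma adjusted p of 0.097. HTB1 (AT1G07790) had 9.65 and 9.93 in RECA1-OE, against 10.08 and 10.17 in Col-0. HTB3 (AT2G28720) had 10.04 in both RECA1-OE arrays, against 10.19 and 10.27 in Col-0. In HTB1 and HTB3 the groups also did not overlap, and the log2 changes of -0.34 ± 0.16 and -0.19 ± 0.14 (SE) did not pass, at an adjusted p by limma of 0.181 and 0.379.

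In the remaining tested H2B genes the groups overlapped. HTB2 (AT5G22880) had 8.46 and 9.34 in RECA1-OE, against 9.13 and 9.28 in Col-0. Only RECA1-OE replicate 1 was low there, and without it the log2 change was 0.13 in place of -0.31. HTB11 (AT3G46030) had 10.61 and 10.63 in RECA1-OE, against 10.84 and 10.57 in Col-0, a log2 change of -0.09 ± 0.16 (SE). Over the 6 tested H2B genes the log2 changes ran from -0.63 to -0.09 with a median of -0.32. The groups stood apart, with RECA1-OE lower, in 4 of the 6. Over all tested probe sets the groups did not overlap in 65.0%, with RECA1-OE lower in 35.1% and higher in 29.9%. Over the 11 tested members they did not overlap in 63.6%, with RECA1-OE lower in 6 genes and higher in 1.

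The dim H2B genes had the opposite sign. HTB7 (AT3G09480) had 6.82 and 6.94 in RECA1-OE, against 6.41 and 6.25 in Col-0, and HTB10 (AT5G02570) had 6.33 and 5.79 in RECA1-OE, against 5.69 and 5.34 in Col-0. In both genes the RECA1-OE arrays were the higher ones. With dim probe sets kept in the fit, the log2 changes were 0.55 ± 0.27 and 0.55 ± 0.40 (SE), and neither passed, at an adjusted p by limma of 0.287 and 0.457. The paired H2B genes thus did not all have the same sign.

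None of the 3 linker histone genes passed the test. H1.1 (AT1G06760) had 11.29 and 11.63 in RECA1-OE, against 11.73 and 11.44 in Col-0. H1.2 (AT2G30620) had 11.75 and 11.78 in RECA1-OE, against 11.88 and 11.68 in Col-0. These are the main linker histones of Arabidopsis, and in both the groups overlapped. Their log2 changes were -0.12 ± 0.18 and -0.01 ± 0.14 (SE), with 95% intervals from -0.54 to 0.29 and from -0.35 to 0.32. That of H1.2 was 0.05 after quantile normalization.

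H1.3 (HIS1-3, AT2G18050), a linker histone that drought and abscisic acid induce, was the tested member with the largest difference upward. It had 7.86 and 8.77 in RECA1-OE, against 7.72 and 6.75 in Col-0. Both RECA1-OE arrays were above both Col-0 arrays, but RECA1-OE replicate 1 and Col-0 replicate 1 lay close together. The means were 8.31 ± 0.65 in RECA1-OE and 7.24 ± 0.69 in Col-0 (SD, n = 2 each). The log2 change was 1.07 ± 0.39 (SE), a ratio of 2.11, with a 95% interval from 0.16 to 1.98 and a limma adjusted p of 0.094. Leaving out Col-0 replicate 1 gave 1.56, which was called, and leaving out Col-0 replicate 2 gave 0.59, which was not. Its change was close in size to those of PRL and AUR1, while its SD of 0.65 within RECA1-OE was larger than the 0.10 of PRL and the 0.11 of AUR1.

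The H3-like genes HTR6 (AT1G13370) and HTR14 (AT1G75600) were near the floor of the array. HTR6 had 4.77 and 4.51 in RECA1-OE, against 2.64 and 4.75 in Col-0. HTR14 had 1.11 and 0.48 in RECA1-OE, against 0.85 and 0.00 in Col-0, where 0.00 is the floor set at a linear signal of 1. At this signal no difference could be read for either gene.

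**Figure D2:**
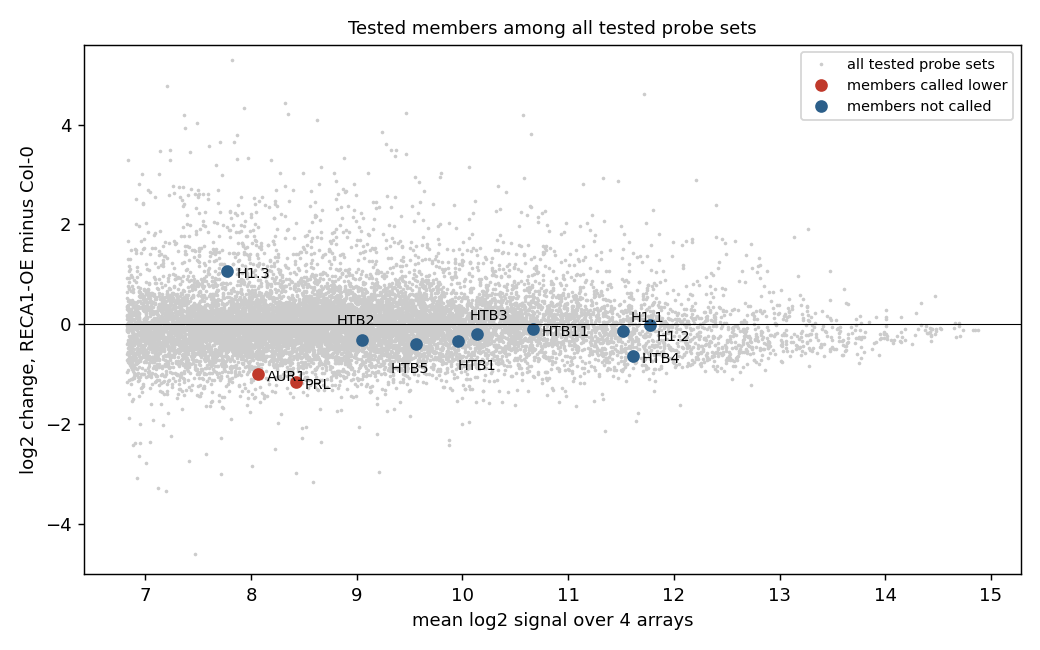
Log2 change in RECA1-OE minus Col-0 against the mean log2 signal over 4 arrays, for all 13647 tested probe sets (grey) and the 11 tested members. PRL and AUR1 (red) lie near the lower edge of the cloud at their brightness, and the other members (blue) lie within it.

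Replication-dependent histone H3.1 and replication-independent H3.3 differ in when plants deposit them, H3.1 with DNA synthesis and H3.3 with transcription. Neither has a probe set of its own in the annotation, which pairs 5 probe sets with all 5 H3.1 genes together, 3 with all 3 H3.3 genes and 5 with all 8 H4 genes. Which gene of a family each probe set measures is not resolved by this pairing, and probe sets of a family may detect the same transcripts, so they are not separate genes. They were described because every gene paired with them is on the list. This was decided once the annotation had been seen and after their values could be seen.

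Signals of the H3.1 family were lower in RECA1-OE. Of the 5 shared H3.1 probe sets, 4 were called lower by limma and 0 higher, and in all 5 both RECA1-OE arrays were below both Col-0 arrays, as in 35.1% of all tested probe sets. Numbering them from the brightest, the first had 10.46 and 11.12 in RECA1-OE, against 11.88 and 11.53 in Col-0. The second had 10.97 and 10.94 in RECA1-OE, against 11.55 and 11.37 in Col-0. These groups did not overlap, with the wider spread in the first.

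The third shared H3.1 probe set had 9.20 and 9.60 in RECA1-OE, against 10.30 in both Col-0 arrays. The fourth had 9.30 and 9.34 in RECA1-OE, against 10.35 and 10.17 in Col-0. The fifth had 9.30 and 9.46 in RECA1-OE, against 9.84 and 9.87 in Col-0. From the first to the fourth, the log2 changes were -0.92 ± 0.24, -0.50 ± 0.14, -0.90 ± 0.18 and -0.94 ± 0.15 (SE), at an adjusted p by limma of 0.034, 0.049, 0.014 and 0.0071. The fifth, at -0.48 ± 0.15 and 0.065, did not pass. Leaving out RECA1-OE replicate 1 ended all 4 calls. In that limma fit the unadjusted p was under 0.05 for 4 of the 5 probe sets, and all 5 log2 changes were negative, that of the first being -0.59. The calls became 2 with dim probe sets kept, without the mean-variance trend and with the replicate number as a block.

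Signals of the H3.3 family did not pass in either direction, and by limma 0 of 3 had an unadjusted p under 0.05. In 1 of the 3, the brightest, both RECA1-OE arrays (13.18 and 13.12) were below both Col-0 arrays (13.31 and 13.24). The 3 shared H3.3 probe sets had log2 signals between 12.63 and 13.22 in RECA1-OE, against 12.49 to 13.31 in Col-0. Their log2 changes were -0.13, 0.10 and 0.05, with SE between 0.13 and 0.15, and the widest 95% interval ran from -0.29 to 0.39. The mean over the H3.1 sets minus the mean over the H3.3 sets was -3.18 and -2.83 in RECA1-OE, against -2.14 and -2.37 in Col-0. The H3.1 sets were thus lower relative to the H3.3 sets in both RECA1-OE arrays, by 0.75 on the log2 scale. An exact two-sided permutation test over the 4 arrays gave p = 0.333, the smallest that 2 against 2 arrays allow, and so decides nothing about this difference.

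In the H4 family 1 of 5 shared probe sets was called lower by limma, 0 higher (also 0 at an unadjusted p under 0.05) and 4 were not called, and in 4 of the 5 both RECA1-OE arrays were below both Col-0 arrays, against the same 35.1% overall. The called one had 9.89 and 10.24 in RECA1-OE, against 10.78 in both Col-0 arrays, a log2 change of -0.71 ± 0.17 (SE) with a limma adjusted p of 0.026. Leaving out RECA1-OE replicate 1 ended that call, at a log2 change of -0.54. The other log2 changes ran from -0.65 to 0.02. Over the 3 families, 5 of 13 shared probe sets were called lower, or 38.5%, where the background for calls in this direction is 9.97%. The shared probe sets were added after their values could be seen, and those of a family may detect the same transcripts. Comparisons of these families with the background are therefore a description, and no enrichment was tested.

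**Figure D3:**
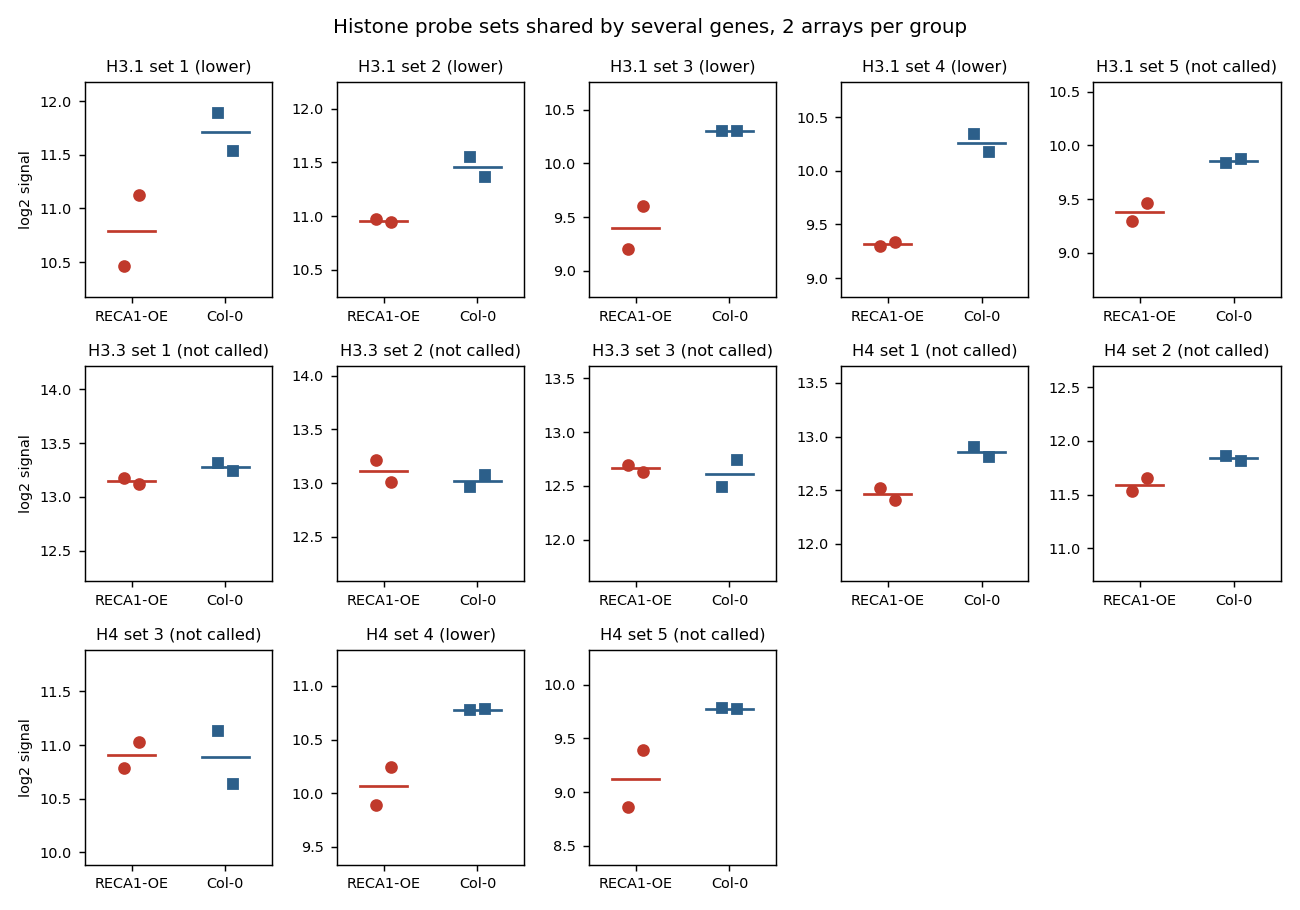
Log2 signal of the 13 tested probe sets that are paired jointly with the H3.1, H3.3 or H4 genes, numbered within a family from the brightest. RECA1-OE arrays (circles) stand left of Col-0 arrays (squares), lines are means and every panel spans 2 log2 units. The H3.1 panels all show RECA1-OE below Col-0, and the H3.3 panels do not separate the groups in the same way.

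Other genes of the replication and cell cycle machinery were taken from 8 lists of 158 genes, of which 14 had a paired probe set and 10 were tested. Of these 10, 4 were called lower by limma, 0 higher (also 0 at an unadjusted p under 0.05) and 6 were not called. The called ones are 40%, where 9.97% of all tested probe sets were called lower. The lists were chosen with earlier results of these data known, so the 2 shares are a description and no enrichment was tested. Without RECA1-OE replicate 1 the 4 called genes became 1, and without RECA1-OE replicate 2 they also became 1. TOPII was called in both of these fits. ICU2 and AT1G08180 reached the filter only through the brighter group, and with both set aside 3 of 8 genes were called lower and 0 higher. None of the listed genes of nucleotide supply, the DNA damage response or organelle DNA maintenance had a paired probe set. At the replication fork 5 genes were tested and 3 were called lower, ICU2 among them. TOPII (AT3G23890), the topoisomerase that untangles replicated DNA, had 6.95 and 7.66 in RECA1-OE, against 8.64 and 8.77 in Col-0. Its log2 change was -1.40 ± 0.25 (SE), which is 2.63-fold lower, and its adjusted p by limma was 0.011.

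Signals of 2 genes of DNA polymerase alpha, which starts each new strand, were also measured. POLA3 (AT5G41880), a primase subunit, had 7.36 and 7.55 in RECA1-OE, against 8.23 and 8.54 in Col-0. ICU2 (AT5G67100), the catalytic subunit, had 6.54 and 6.40 in RECA1-OE, against 7.23 and 7.44 in Col-0. The groups did not overlap in either gene. The log2 change was -0.93 ± 0.20 for POLA3 and -0.86 ± 0.23 for ICU2 (SE), and limma gave adjusted p values of 0.018 and 0.038. The ICU2 mean in RECA1-OE was 6.47, below the lowest mean tested of 6.82, so ICU2 was tested only because Col-0 was brighter and its call carries little weight. It was not called under 5 of 11 alternatives, among them dim probe sets kept (limma adjusted p 0.099), the replicate number as a block (0.064) and leaving out Col-0 replicate 2 (0.125). POLA3 was not called under 2 of 11, those without either RECA1-OE array. POLD3, of DNA polymerase delta, had a log2 change of -0.43 ± 0.23, and AT5G26680, which encodes the flap endonuclease FEN1, one of 0.00 ± 0.22 (SE). Neither passed.

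Among the genes of chromatin assembly 2 were tested. ASF1B (AT5G38110) encodes a chaperone that hands histones H3 and H4 to newly made DNA. It had 7.89 and 7.95 in RECA1-OE, against 8.69 and 8.64 in Col-0, with no overlap and little spread in either group. Its log2 change was -0.74 ± 0.16 (SE), at an adjusted p by limma of 0.020, and without either RECA1-OE array it was not called. Its paralogue ASF1A (SGA2, AT1G66740) had 8.66 and 8.68 in RECA1-OE, against 8.22 and 8.59 in Col-0, a log2 change of 0.26 ± 0.18 that did not pass. Whether the 2 paralogues differ in their response was not tested.

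Of the cell cycle genes, AUR2 (AT2G25880), the closest paralogue of AUR1, had 7.01 and 7.34 in RECA1-OE, against 7.68 and 8.31 in Col-0. The groups did not overlap, and the log2 change was -0.82 ± 0.26 (SE) with a limma adjusted p of 0.067. With the replicate number as a block this p was 0.043, and with dim probe sets kept it was 0.142. Leaving out each array in turn gave AUR2 log2 changes between -1.14 and -0.50. The inhibitors of cyclin-dependent kinases SIM and AT1G08180, which encodes SMR2, had log2 changes of -0.28 ± 0.21 and 0.39 ± 0.27 (SE), and in both the groups overlapped. With the lowest 60% left out, 3 of the 10 genes were tested and 1 was called.

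**Figure D4:**
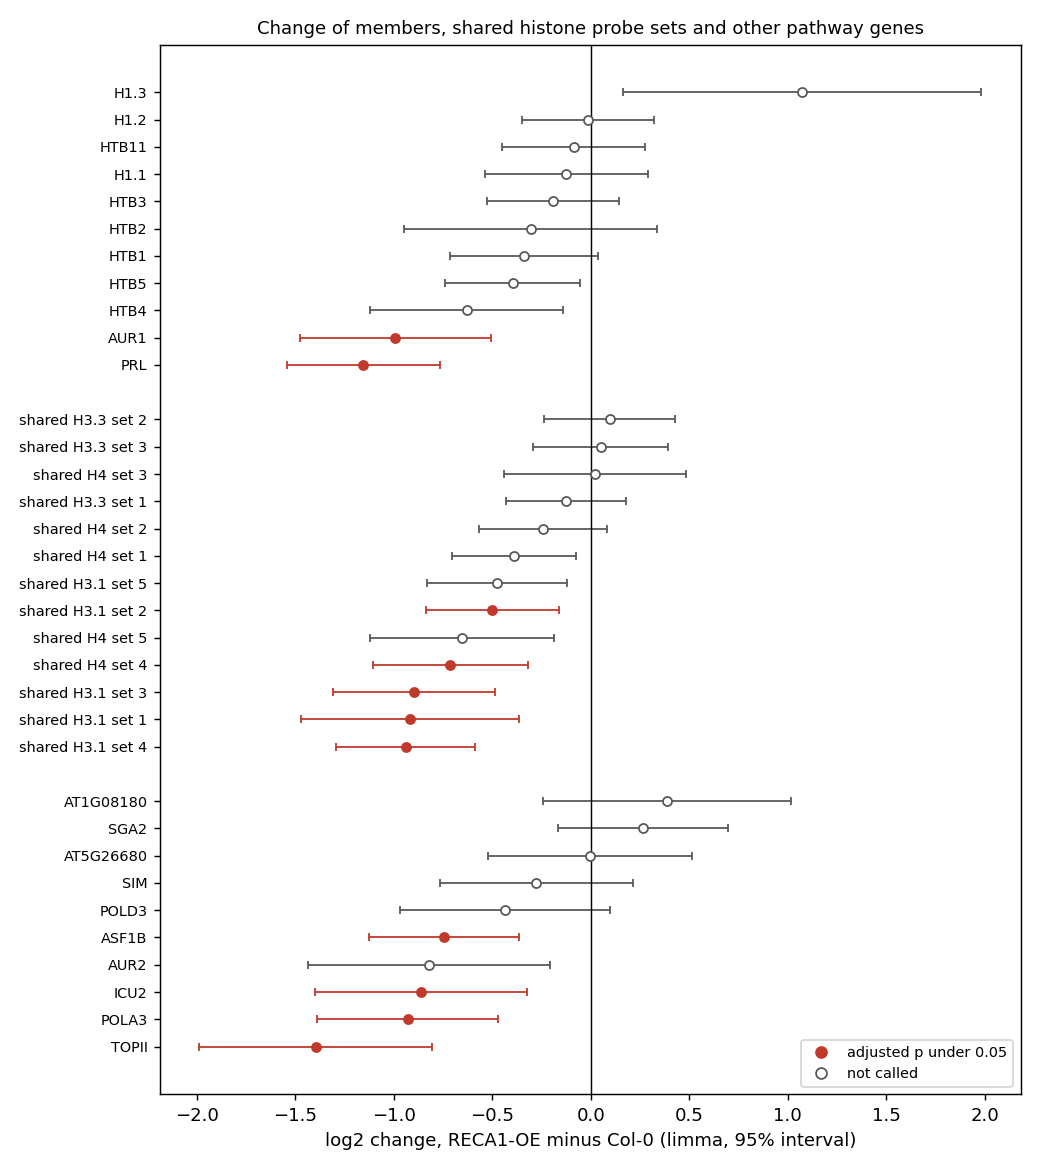
Log2 change in RECA1-OE minus Col-0 with limma's 95% interval, for the 11 tested members (top), the 13 shared histone probe sets (middle) and the 10 other tested pathway genes (bottom). Filled red points are called at an adjusted p under 0.05. All called points lie below 0.

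Markers of the tissues that hold dividing cells were hardly measured. Of 9 markers of the shoot and root meristems, only CLV3 had a paired probe set, and it lay below the filter, with 3.88 and 4.12 in RECA1-OE, against 1.22 and 0.75 in Col-0. With dim probe sets kept its limma adjusted p was 0.076. Among root markers, EXPA18, of root hairs, had 6.90 and 7.14 in RECA1-OE, against 8.03 and 7.33 in Col-0, and PYK10 had a log2 change of -0.43 ± 0.24 (SE), and neither passed. Both values turned on single arrays. Without Col-0 replicate 2 both were called lower, PYK10 at -0.73 (limma adjusted p 0.016) and EXPA18 at -1.01 (0.0077), and without Col-0 replicate 1 they were -0.13 and -0.30. Without RECA1-OE replicate 1 the change of PYK10 was -0.18. The linear signals of the 3 paired root markers summed to between 9298 and 13121 in RECA1-OE, against 12136 and 18247 in Col-0. Those of the 3 green leaf markers summed to between 52972 and 63204 in RECA1-OE, against 63272 and 65183 in Col-0. FAMA, of guard cells, had a log2 change of -0.30 ± 0.22 (SE) and did not pass. The part of tissue composition in the lower signals of PRL, AUR1 and the H3.1 family was not tested.

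**Figure D5:**
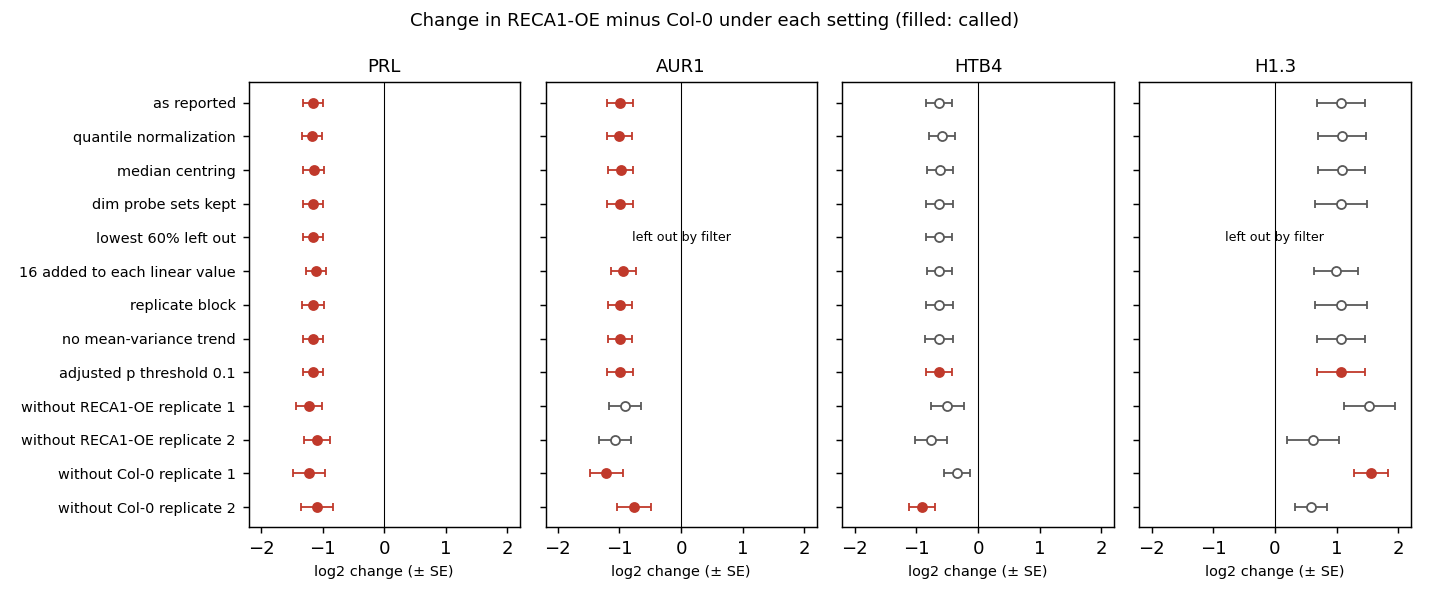
Log2 change in RECA1-OE minus Col-0 with its SE for PRL, AUR1, HTB4 and H1.3 under the reported fit and each alternative setting. Filled points are called. PRL is called in every row, AUR1 is not called when either RECA1-OE array is left out, and the points of H1.3 move with the array left out.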

How the data were processed

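The deposited values are log2 signals of each probe set on each array. The submitters' processing notes name MAS5, without a version. MAS5 scales each array by 1 factor. On a linear scale, their trimmed mean lay between 495.3 and 495.8 on all 4 arrays. Dim MAS5 signals carry much noise, and changes of dim genes are uncertain in size.

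Linear signals below 1 were set to 1. A filter on the mean log2 signal removed the dimmest 40% of probe sets and kept 13647, all at 6.82 or above. RECA1-OE was compared with Col-0 by limma 3.58.1 in R 4.3.3 (lmFit and trended eBayes, two-sided, p-values adjusted by Benjamini-Hochberg across the tested probe sets). The fit has 2 residual degrees of freedom, to which moderation added 5.42, and the number of arrays limits the precision. Without 1 array, a group's lone array is assumed to vary like the others. SE are limma's. Genes were paired through the platform annotation (13513 probe sets with 1 gene, 503 with several, 8730 with none) and matched to TAIR10.1 loci by Entrez ID (13436). No genome build comes with the values, and sequences are not used here.

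Members and lists were chosen with earlier results of these data known. Every member could be named. Full statistics are given for called members and the member of each class with the smallest p. Some statistics are also given for other uncalled members. From each other list, every called gene and up to 3 uncalled ones are given. The shared probe sets were added after their values could be seen. The fit was tested on simulated data under 3 noise models. The share of changes recovered and the number of false calls differed between these models. Alternatives were other normalizations, filters, an added constant, a replicate block, no trend, another threshold and leaving out each array.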

Additional observations from a re-analysis of the deposited data

How the results depend on the processing

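PRL was called lower under all 12 alternatives that measured it, AUR1 under 9 of 11. With dim probe sets kept, 1787 probe sets were called (752 lower), the members' median log2 change was -0.12 over 15 genes, and 2 of the 5 shared H3.1 probe sets were called lower. They were also 2 without the mean-variance trend. With the lowest 60% left out, 1 of 9 members and 1 of 3 other pathway genes were called lower, since fewer genes were tested. At an adjusted p threshold of 0.1, 2137 probe sets were called lower, as were 4 members and 3 shared H3.3 and H4 probe sets, and 1 member was called higher. With the replicate number as a replicate block, 2390 probe sets were called (2716 without it), PRL and AUR1 stayed called, and the shared H3.1 calls were 2. The deviations of same-numbered arrays correlated at -0.06 across probe sets, and the labels tie the numbers to nothing. Whether same-numbered arrays shared more than a number is not known. Every paired member had 1 probe set, so no gene had several probe sets to average.

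Leaving out each array in turn gave between 746 and 3906 called probe sets (485 to 1930 higher, 261 to 1976 lower). It gave 1 to 3 members called lower and 0 to 1 called higher, 1 to 5 other pathway genes lower, 0 to 4 shared H3.1 probe sets lower and 0 to 2 shared H3.3 and H4 probe sets lower. The 0 stood without RECA1-OE replicate 1, where limma gave 4 of the H3.1 and 2 of the H3.3 and H4 probe sets an unadjusted p under 0.05 and a lower signal. Leaving out arrays turned the sign of some uncalled changes, whose log2 ranges were -0.74 to 0.13 for HTB2, -0.22 to 0.048 for HTB11, -0.29 to 0.043 for H1.1 and -0.11 to 0.088 for H1.2. They were -0.073 to 0.065 for FEN1 (AT5G26680), -0.25 to 0.10 for RCA, -0.0039 to 0.20 and -0.077 to 0.18 for shared H3.3 probe sets 2 and 3 by brightness and -0.22 to 0.27 for shared H4 probe set 3. Quantile normalization turned H1.2 to 0.048, FEN1 to 0.041, RCA to 0.021 and shared H4 probe set 3 to -0.016, and median centring turned FEN1 to 0.0077. The cause of these changes was not tested. With 2 arrays per group and dim signals for 4 of 15 members, a difference that did not pass is not shown to be absent.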

Other observations

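Several dim genes of the same machinery showed values that the filter kept out of the comparison. CENH3 (HTR12, AT1G01370), the centromeric histone H3, had log2 signals of 5.42 and 5.80 in RECA1-OE, against 6.88 and 6.66 in Col-0. AUR3 (AT2G45490), the third Aurora kinase gene, had 5.85 and 6.33 in RECA1-OE, against 6.94 and 6.89 in Col-0. PSF2 (AT3G12530), of the GINS complex at the replication fork, had 5.95 and 6.08 in RECA1-OE, against 6.50 and 7.44 in Col-0. In all 3 both RECA1-OE arrays were below both Col-0 arrays, and with dim probe sets kept the limma adjusted p values were 0.097, 0.170 and 0.203. Among the tested probe sets, which do not include these dim genes, 35.1% were apart in this direction. AT1G07270, a CDC6 gene of origin licensing, had 5.31 and 5.75 in RECA1-OE, against 5.65 and 5.79 in Col-0, and the groups overlapped. A probe set paired jointly with HTR6 and HTR14 had 2.78 and 2.45 in RECA1-OE and was at the floor of 0 in both Col-0 arrays.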
